A study of Mus musculus with 4 samples.

Results

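The small leucine-rich proteoglycans examined here were the 10 genes Dcn, Bgn, Aspn, Fmod, Lum, Prelp, Omd, Epyc, Ogn and Chad, and the regions were the peaks of 5-hydroxymethylcytosine (5hmC) that the authors assigned to one of them, together with unassigned peaks lying between members that neighbour each other on a chromosome less than 200 kb apart. They numbered 25 of the 56695 peaks of the chondrocyte list and 0 of the 1050 peaks of the chondroprogenitor list. Of the 25 peaks, 16 carried a member's symbol and 9 were unassigned. Gene symbols and positions picked out the peaks, but the 10 genes were chosen with earlier results of these data known, so their counts are given as a description.

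The cells were ATDC5, a mouse chondrogenic line, so each stage stands for 1 cell line in culture. Chondrocytes had received insulin, transferrin and selenite for up to 20 days, and chondroprogenitors were taken at day 0 in the same ascorbic acid-containing medium before that supplement. The 4 libraries of DNA captured by its 5hmC comprised 2 from chondrocytes (days 19 and 20) and 2 from chondroprogenitors, and the libraries of a stage were merged by the authors into 1 list of peaks that passed a 10-fold enrichment. The lists gave positions and gene symbols without a height per peak, so no replicate spread or test between the stages could be had, read depth was unknown, and the cell type could not be checked against expressed markers.

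5hmC is the product of oxidation of 5-methylcytosine by TET enzymes and is often found in the bodies of transcribed genes and at enhancers. Small leucine-rich proteoglycans are secreted proteins built of leucine-rich repeats, most of which carry chondroitin, dermatan or keratan sulphate chains. They bind collagen fibrils and set fibril diameter and spacing, and several of them also bind growth factors such as TGF-beta. They fall into classes by sequence, and most of the genes sit in clusters that are thought to have arisen by duplication.

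In chondrocytes, 8 of the 10 genes had at least 1 assigned peak, and in chondroprogenitors 0 of 10 had one. The background was 43.8% of 21900 protein-coding genes with an assigned peak in the chondrocyte list and 1.81% in the chondroprogenitor list. The chondrocyte share of 80.0% had a Wilson 95% interval of 49.0 to 94.3%, which covers counting error only and treats neighbouring genes as separate. Among protein-coding genes as long as the members, from 4.08 to 38.7 kb, 40.1% had an assigned chondrocyte peak. At a chondroprogenitor background of 1.81%, the absence of a peak from 10 genes was the usual case and shows no stage difference for them. By overlap of the peak with the gene body, 7 of the 10 genes had a chondrocyte peak, against 40.5% of protein-coding genes, and 0 had a chondroprogenitor peak, against 1.76%. With only peaks at least as wide as the median of the chondrocyte list, 4 of the 10 genes had an assigned peak, against 28.1% of protein-coding genes. Of the 25 peaks, 0 coincided with a chondroprogenitor peak, and 0.841% of the whole chondrocyte list did (0.769 to 0.920%). At that share, 0 of 25 was the usual case and shows no difference from the whole list.

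**Figure D1:**
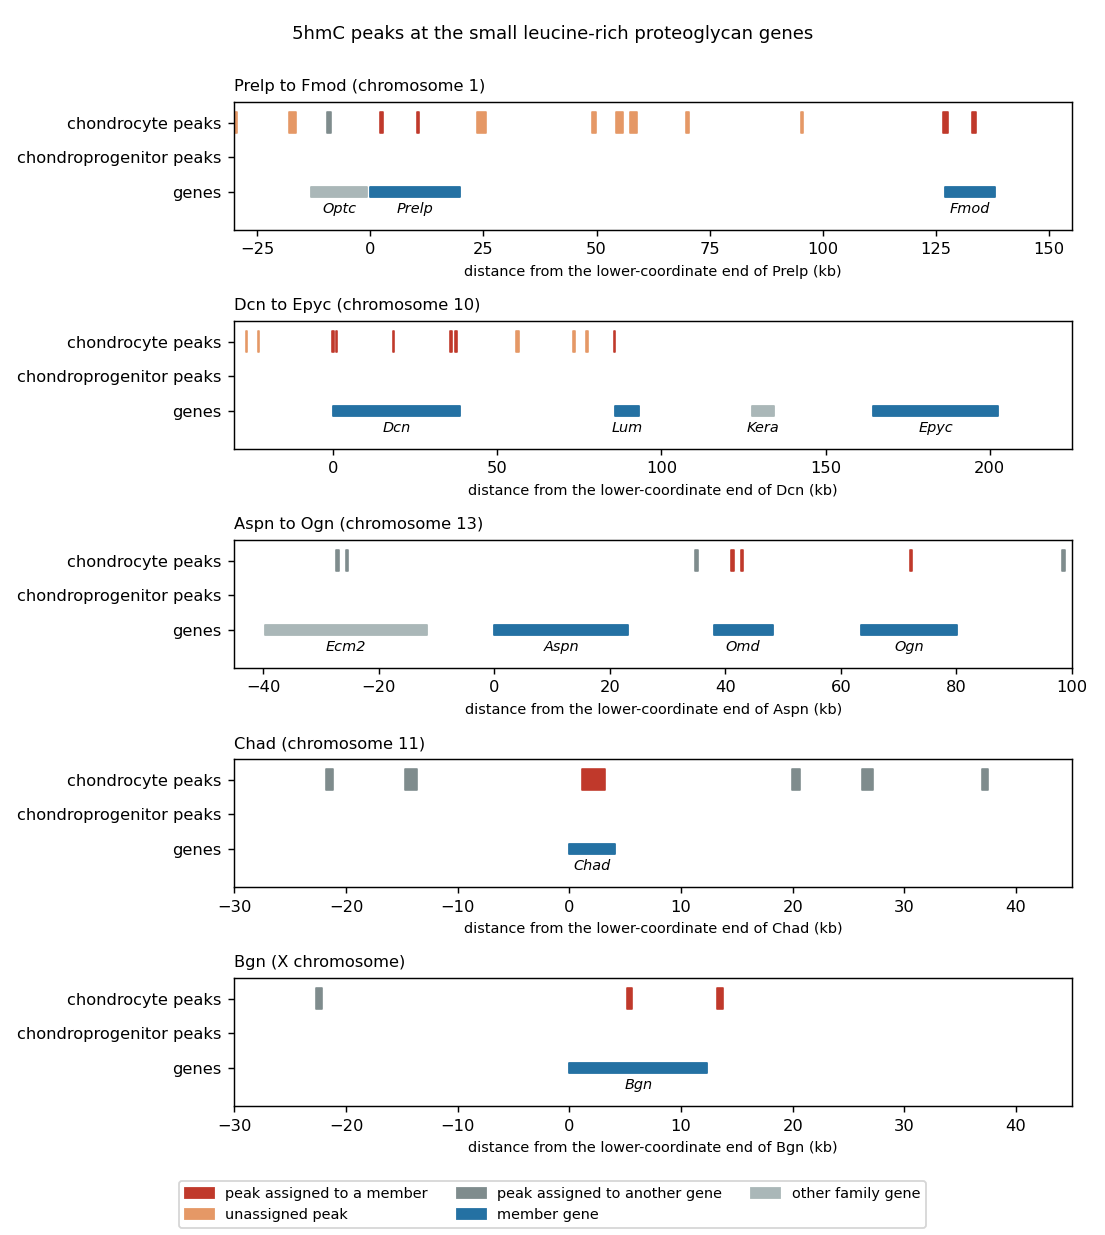
Positions of 5hmC peaks at the 3 clusters and the 2 isolated genes, in kb from the lower-coordinate end of the gene named under each axis. The upper track holds chondrocyte peaks, the middle track chondroprogenitor peaks (0 in every panel) and the lower track the genes. The chondrocyte peaks lay over Dcn and towards Lum, and stopped before the body of Lum.

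The class I members ranged from 5 assigned peaks in Dcn to 0 in Aspn. Dcn encodes decorin, a proteoglycan with a single glycosaminoglycan chain that binds type I collagen and TGF-beta. It had 5 assigned peaks in 38.7 kb on chromosome 10 (97479500 to 97518163, GRCm38), the most of any member. The first peak (97479245 to 97479778) lay across the lower-coordinate end of the gene, with 279 of its 534 bp inside. The second (97480451 to 97480748) was the narrowest of the 25, at 298 bp, and began 951 bp from that end. A peak of 558 bp stood alone near the middle of the gene (97497641 to 97498198), and the last pair, of 501 and 708 bp, lay close to the higher-coordinate end (97515095 to 97515595 and 97516661 to 97517368). Dcn was thus marked at both ends and near its middle, with 6.06% of its length inside peaks. Of 4123 protein-coding genes within 1.5 times its length, 5.00% had 5 or more assigned peaks and 10.99% were covered at least as far, and 8.48% of all protein-coding genes had 5 or more.

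Bgn encodes biglycan, the closest relative of decorin, and lies on the X chromosome (73483601 to 73495936), where peaks were sparse. The chondrocyte list held 0.360 peaks per 100 kb on the X chromosome and 2.35 per 100 kb on the autosomes. Bgn had 2 assigned peaks, of 377 bp inside the gene (73488797 to 73489173) and of 506 bp lying 906 bp past its end (73496842 to 73497347). Of the 966 protein-coding genes of the X chromosome, 16.8% had an assigned chondrocyte peak and 6.94% had 2 or more, as did 13.2% of all protein-coding genes within 1.5 times the length of Bgn. Aspn encodes asporin, a class I protein that binds collagen and calcium and lacks a glycosaminoglycan chain. It had 0 assigned peaks in 23.1 kb on chromosome 13 (49544443 to 49567565), and the nearest chondrocyte peak was 11.6 kb away. A chondrocyte peak was assigned to 48.0% of protein-coding genes within 1.5 times the length of Aspn.

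All 4 class II genes had assigned peaks. Fmod encodes fibromodulin, a keratan sulphate proteoglycan that regulates collagen fibril assembly. It had 2 wide peaks in 11.03 kb on chromosome 1 (134037254 to 134048280), of 995 and 953 bp. The first (134036860 to 134037854) ran from 394 bp before to 600 bp after the transcription start, and the second (134043257 to 134044209) began 6003 bp after it. Together they put 14.1% of the gene body inside peaks, and 2.89% of 4154 protein-coding genes of similar length were covered at least as far, while 12.2% had 2 or more assigned peaks. Prelp encodes a proline- and arginine-rich protein that anchors basement membranes to connective tissue. It had 2 peaks on the same chromosome (gene from 133910304 to 133930102, minus strand), of 653 and 611 bp. The wider one (133920528 to 133921180) began 221 bp after the transcription start at 133921401, and the other (133912512 to 133913122) began 8279 bp after it. That start lies inside the annotated gene, whose upstream end is at 133930102. Among protein-coding genes of similar length, 20.2% had 2 or more assigned peaks and 10.6% were covered at least as far.

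Lum encodes lumican, a keratan sulphate proteoglycan of cornea and cartilage. Its 1 assigned peak of 387 bp (97565057 to 97565443) ended 58 bp before the lower-coordinate end of the gene (chromosome 10, 97565501 to 97572703), and the body of Lum held 0 peaks. An assigned peak was present in 28.8% of protein-coding genes of similar length. Omd encodes osteomodulin, a keratan sulphate proteoglycan of bone and dentine. It had 2 peaks, of 539 and 379 bp, in 10.2 kb on chromosome 13 (49582462 to 49592612), which began 2987 and 4678 bp after the transcription start. Of protein-coding genes of similar length, 11.1% had 2 or more assigned peaks and 8.12% were covered at least as far. Fmod and Lum therefore carried a peak across or just before an end of the gene, whereas both peaks of Omd lay inside it.

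The class III and class IV members carried 1 peak each in Ogn and Chad and 0 in Epyc. Ogn encodes osteoglycin, also called mimecan, and its 1 peak of 333 bp (49616470 to 49616802) began 8455 bp after the start of a 16.5 kb gene (chromosome 13, 49608015 to 49624501). At least 1 assigned peak was found in 41.8% of protein-coding genes of similar length. Epyc encodes epiphycan, a proteoglycan of epiphyseal cartilage. It had 0 peaks in 37.8 kb on chromosome 10 (97644068 to 97681908), and the nearest chondrocyte peak was 78.6 kb away. Of 4151 protein-coding genes within 1.5 times its length, 59.6% had an assigned chondrocyte peak. Chad encodes chondroadherin, a cartilage protein that binds integrins and collagen. It is the shortest member, with 4.08 kb on chromosome 11 (94565047 to 94569127), and had 1 peak of 2028 bp (94566162 to 94568189).

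The peak in Chad covered 49.7% of the gene, and 0.192% of 2605 protein-coding genes of similar length were covered at least as far, while 22.3% had at least 1 assigned peak. It was wider than all but 0.702% of chondrocyte peaks. Chad lies within the larger gene Acsf2, and Omd, Ogn and Aspn lie within Cenpp, so peaks in these members fall in 2 annotated genes at once and which of the pair a peak belongs to was not tested. The authors assigned 8 other chondrocyte peaks to Cenpp, of which 1 lay between Aspn and Omd.

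**Figure D2:**
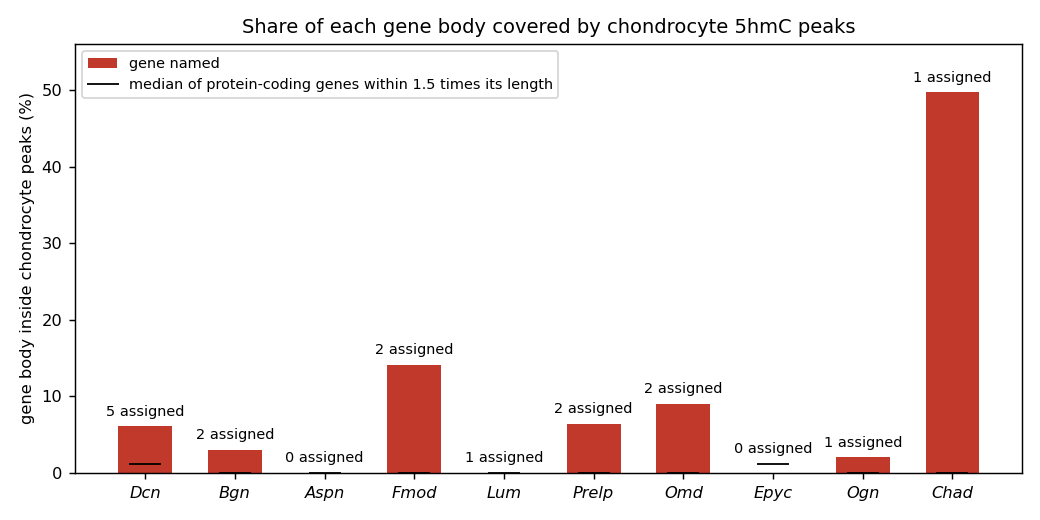
Share of each gene body inside chondrocyte peaks, in percent, with the number of assigned peaks above each bar. Black marks give the median of protein-coding genes within 1.5 times the length of the gene. Chad stood at 49.7% and Fmod at 14.1%, and Aspn, Lum and Epyc were at 0.

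Promoter sequence was read from RefSeq windows of GRCm38.p6, which run from 250 bases before to 50 after a transcription start. Windows matched 8 of the 10 members (all but Dcn and Lum), with 9 windows in all. Of these 8 genes only Fmod had its window overlapped by a chondrocyte peak, and over all 32851 windows 4.7% were overlapped. The 250 bases before the start are shown, 5′ to 3′, for the overlapped promoter of Fmod, for Prelp and Chad with a peak after the start, and for Epyc and Aspn with 0 peaks. Capitals mark CG, the dinucleotide at which most cytosine methylation and 5hmC occurs in mammals.
Fmod (chr1:134037004-134037253, plus strand): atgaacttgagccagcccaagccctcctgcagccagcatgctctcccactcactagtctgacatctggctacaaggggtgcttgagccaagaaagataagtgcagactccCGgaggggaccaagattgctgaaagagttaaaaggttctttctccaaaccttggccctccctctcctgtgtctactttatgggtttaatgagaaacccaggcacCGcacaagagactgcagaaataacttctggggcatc
Prelp (chr1:133921402-133921651, minus strand): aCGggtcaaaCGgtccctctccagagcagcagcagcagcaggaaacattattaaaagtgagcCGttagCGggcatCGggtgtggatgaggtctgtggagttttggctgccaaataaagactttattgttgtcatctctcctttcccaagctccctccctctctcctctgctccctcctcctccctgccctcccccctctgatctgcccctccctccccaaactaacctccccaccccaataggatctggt
Chad (chr11:94564797-94565046, plus strand): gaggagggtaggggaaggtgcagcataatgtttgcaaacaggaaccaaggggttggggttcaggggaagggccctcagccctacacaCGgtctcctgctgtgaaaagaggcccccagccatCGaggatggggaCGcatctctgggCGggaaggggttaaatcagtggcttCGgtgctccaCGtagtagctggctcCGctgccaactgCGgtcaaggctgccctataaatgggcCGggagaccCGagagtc
Epyc (chr10:97643818-97644067, plus strand): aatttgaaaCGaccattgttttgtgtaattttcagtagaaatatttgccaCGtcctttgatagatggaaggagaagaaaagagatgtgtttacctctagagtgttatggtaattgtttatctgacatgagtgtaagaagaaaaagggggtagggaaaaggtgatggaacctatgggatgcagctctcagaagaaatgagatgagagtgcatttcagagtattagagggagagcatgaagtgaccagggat
Aspn (chr13:49544193-49544442, plus strand): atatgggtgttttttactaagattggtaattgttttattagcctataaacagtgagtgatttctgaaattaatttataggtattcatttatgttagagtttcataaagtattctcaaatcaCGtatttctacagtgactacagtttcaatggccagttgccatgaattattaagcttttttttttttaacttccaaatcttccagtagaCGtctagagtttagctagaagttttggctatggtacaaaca
The stretches of Fmod, Epyc and Aspn each held 2 CG, against 5 for Prelp and 10 for Chad. Of the stretches shown, only that of Fmod was overlapped by a chondrocyte peak.

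Over the full windows, the number of CG was 3 in Fmod, 7 in Prelp, 13 in Chad, 9 in Bgn, 4 in Ogn, 3 in Aspn, 1 in Omd, and 2 and 1 in the windows of Epyc. The median of all windows was 7, with quartiles of 3 and 20. None of the 9 member windows reached that upper quartile. Windows with 3 or fewer CG, the count of Fmod, were overlapped by a chondrocyte peak in 3.54% of cases, and those with 15 or more CG in 2.42%. Both shares were below the 4.70% of all windows, so windows with counts between these limits were overlapped more often than either. GC content spanned 31.0% in Aspn to 63.7% in Bgn, against a median of 52.7% over all windows.

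The windows were also searched for 4 short motifs, and no matches of different motifs overlapped in the member windows. AACAAT, the core that SOX factors recognise, was counted on both strands and occurred in Prelp, Aspn, Ogn and both windows of Epyc, and in 10.7% of all windows. TATAAA, the letters of a TATA box, was counted in the direction of transcription alone and occurred in Chad, Aspn and Ogn, and in 8.32% of all windows. The match began 28 bases before the start in Chad, 207 before it in Aspn and 227 before it in Ogn, and a TATA box usually lies close to the start. TGTGGT, the core of RUNX sites, was counted on both strands and occurred in Ogn and 1 window of Epyc, and in 16.8% of all windows. TGANTCA, the AP-1 site, reads alike on both strands and occurred in 0 of 9 member windows and 7.81% of all windows. The genes whose windows held AACAAT included both members without an assigned peak, and also Prelp and Ogn, which had assigned peaks. A link between the motif and peaks was not tested.

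Between neighbouring members, the 9 unassigned chondrocyte peaks fell into 2 of the 5 intervals. The interval between Prelp and Fmod spans 107 kb and held 6 peaks, of 2030, 946, 1624, 1384, 780 and 452 bp in order of position. The widest (133933835 to 133935864) lay 3733 bp beyond the higher-coordinate end of Prelp, which is its upstream side. The last pair (133979966 to 133980745 and 134005478 to 134005929) lay in the long noncoding RNA gene Bmncr. The interval between Dcn and Lum spans 47.3 kb and held 3 peaks, of 965, 636 and 526 bp (97535257 to 97536221, 97552674 to 97553309 and 97556573 to 97557098). The other three intervals, between Lum and Epyc, Aspn and Omd, and Omd and Ogn, held 0 unassigned peaks.

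Unassigned peaks numbered 5.60 per 100 kb between Prelp and Fmod and 6.34 per 100 kb between Dcn and Lum. Of 4350 gaps of 40 to 200 kb between neighbouring protein-coding genes, 52.6% held at least 1 unassigned chondrocyte peak, with a median of 0.934 per 100 kb. The intervals from Prelp to Fmod and from Dcn to Lum are gaps of this kind, whereas Kera interrupts the one from Lum to Epyc and those on chromosome 13 are shorter. A density as high as between Prelp and Fmod was reached by 13.1% of them, and one as high as between Dcn and Lum by 9.82%. The chondroprogenitor list had 0 peaks in all 5 intervals, and its nearest peak to any member was 423 kb from Chad. For the other 9 members that distance ranged from 1381 kb for Epyc to 2175 kb for Bgn. That list held only 1050 peaks over the whole genome, which leaves most stretches of this size empty. Its absence from the intervals and these distances therefore show no stage difference.

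The 3 clusters differed in how peaks were spread. From Prelp to Fmod, 10 chondrocyte peaks of any annotation lay in 138 kb, or 7.25 per 100 kb, against 2.07 per 100 kb over chromosome 1. From Aspn to Ogn, 4 peaks lay in 80.1 kb, or 5.00 per 100 kb, against 2.70 over chromosome 13. From Dcn to Epyc, 9 peaks lay in 202 kb, or 4.45 per 100 kb, against 2.79 over chromosome 10. All 9 of these lay in the part of the cluster from Dcn to the lower end of Lum. The following 232 kb (97565444 to 97797279) held 0 chondrocyte peaks and took in the bodies of Lum, Epyc and Kera, which encodes the corneal proteoglycan keratocan. Of 56083 distances between consecutive autosomal peaks, 1.86% were as long, and the median was 13.4 kb. Such long stretches made up 43.9% of the peak-free autosomal sequence, so they are rare by number and common by length.

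The clusters on chromosomes 10 and 13 run in the same order from a class I gene through class II to a class III gene. Their class I members stood far apart, with 5 peaks in Dcn and 0 in Aspn. Of their class II members, Lum had 1 peak outside its body and Omd had 2 inside. Of the class III members, Epyc had 0 and Ogn had 1. The comparison is of members alone. It leaves out Kera, between Lum and Epyc, with 0 assigned peaks and Ecm2, beside Aspn, with 2. The peak-free stretch around Aspn, from Ecm2 to the lower side of Omd, was 60.0 kb long, and 11.03% of autosomal distances between consecutive peaks were as long, which made up 66.6% of the peak-free autosomal sequence.

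Peaks assigned to members had a median width of 536.5 bp (order-statistic 95% interval 379 to 708 bp, n = 16), against 591 bp in the whole chondrocyte list (quartiles 458 and 783.5 bp). The 9 unassigned peaks had a median of 946 bp (526 to 1624 bp), against 578 bp for all 22514 unassigned chondrocyte peaks. They came from 2 intervals, with a median of 1165 bp between Prelp and Fmod (n = 6) and 636 bp between Dcn and Lum (n = 3). Of the 16 assigned peaks 6 were wider than the median of the whole list, and of the 9 unassigned peaks 7 were. These 6 were the peaks of Fmod and Prelp, 1 of Dcn and that of Chad. All peaks of Omd, Ogn, Lum and Bgn were narrower than that median. The 2 peaks of Fmod and 5 of the 6 between Prelp and Fmod were at least 780 bp wide, so the wide peaks were mostly those of chromosome 1. The intervals of the medians cover sampling of peaks, treat neighbouring peaks as separate and do not cover replicate error.

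**Figure D3:**
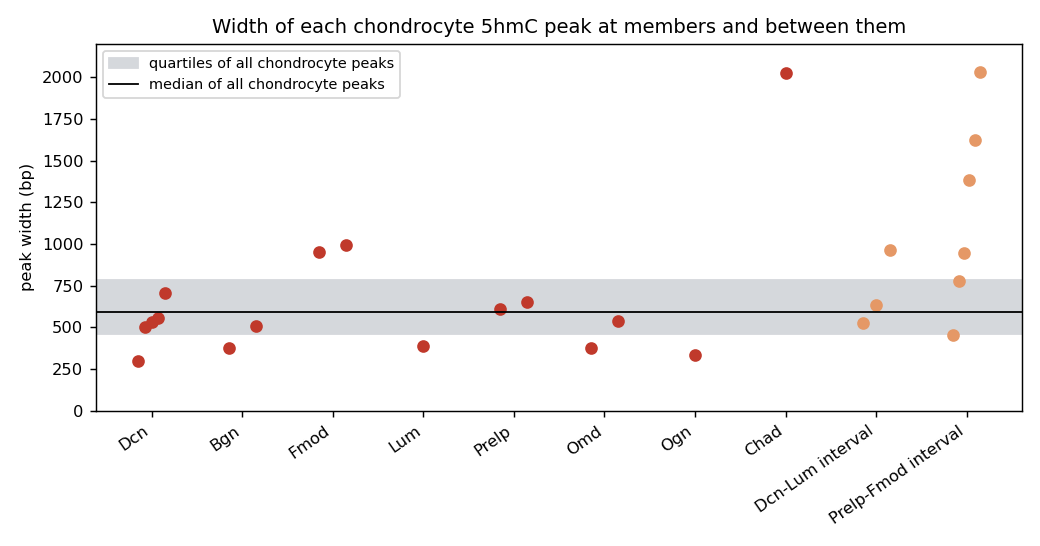
Width in bp of each of the 25 chondrocyte peaks, by gene (red) and by interval between members (orange). The black line and grey band give the median of 591 bp and the quartiles of the whole chondrocyte list. The peak of Chad, at 2028 bp, and the widest of the Prelp-Fmod interval, at 2030 bp, stood highest.

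Other genes of the family and of its biosynthesis and binding partners were counted in the same way. Of 8 further family genes, 6 had an assigned chondrocyte peak, against 43.8% of all protein-coding genes. Nyx, which encodes nyctalopin of the retina and lies on the X chromosome, had 3. Ecm2, beside Aspn, and Podnl1 had 2 each, and Optc, which encodes opticin and lies beside Prelp, had 1 of 881 bp. Podn, which encodes podocan, and Tsku, which encodes the secreted protein Tsukushi, had 1 each. Kera and Chadl had 0. None of the 8 had a chondroprogenitor peak, against 1.81% of all protein-coding genes, so this was the usual case.

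Enzymes that build the linker and chondroitin or dermatan sulphate chains had an assigned chondrocyte peak in 14 of 22 genes (63.6%, Wilson 95% interval 43.0 to 80.3%). Xylt1, which starts the chain, had 23 in 287 kb, and the sulphotransferase genes Chst11 and Ust had 18 each. Keratan sulphate enzymes had one in 5 of 8 genes, with 3 in the galactosyltransferase gene B4galt1 and 2 each in the sulphotransferase genes Chst1 and Chst5. Collagens of the fibrils and microfibrils had one in 13 of 14 genes, with 14 in Col12a1 and 13 each in Col14a1 and Col5a1, and Col3a1 was the exception. Proteases of matrix and proteoglycan processing had one in 10 of 12 genes, with 12 in Adamts2, 9 in Tll2 and 5 in Mmp2. Growth factors and receptors that bind these proteoglycans had one in 12 of 15 genes, with 20 in Igf1r, 13 in Tgfbr3 and 11 in Egfr. Several of these genes are long, with list medians from 18.3 to 61.7 kb against 14.4 kb for the members, and longer genes hold more peaks, so the list counts are not on equal terms. Chondroprogenitor peaks were assigned to Chst11 and Igf1r, with 2 each, and to Col5a3 and Mmp2, with 1 each.

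**Figure D4:**
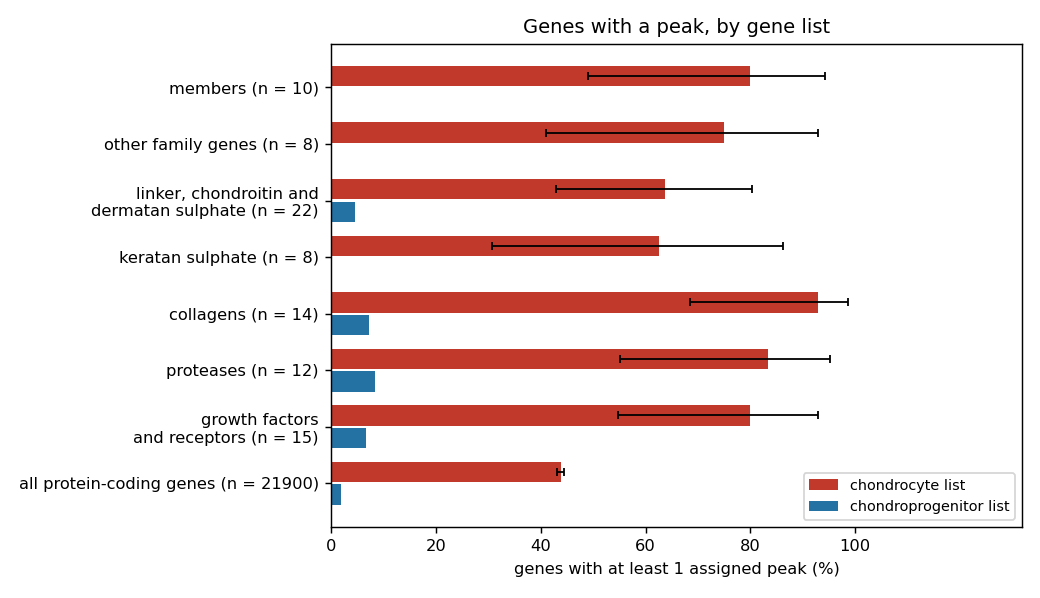
Share of genes with at least 1 assigned peak, in percent, in the chondrocyte list (red, with Wilson 95% intervals) and in the chondroprogenitor list (blue, without intervals), for the members, 6 further gene lists and all protein-coding genes. The members stood at 80.0% and all protein-coding genes at 43.8% in the chondrocyte list.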

How the data were processed

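The series holds 4 libraries, 2 per stage, of DNA captured by its 5hmC with a chemical kit, per the labels' protocols. The authors merged the libraries of each stage and listed peaks above a 10-fold enrichment, per the file headers. Neither the baseline of that enrichment nor the use of the day 19 library for the list headed day 20 is stated. The submitters' processing notes name build GRCm38 (mm10) and the tools FastQC, cutadapt, BWA and MACS 1.4.2. The deposited values were peak positions, gene symbols and transcript accessions, with no score per peak. In the chondrocyte list, 3 of 56698 entries had no readable end and were left out.

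Gene positions came from RefSeq genes of GRCm38.p6, matched by transcript accession or, failing that, symbol (99.7% of chondrocyte and 98.7% of chondroprogenitor entries with a symbol). The files' own assignment was used, and 89.2% of assigned chondrocyte peaks touched their gene. Overlap means at least 1 bp, and gaps were measured between annotated gene ends. Named genes were the 10 members, all other family genes, genes between neighbouring members, and from each list the 3 genes with the most chondrocyte and up to 2 with the most chondroprogenitor peaks. Other genes were named after their values were seen. Members, lists and motifs were chosen with earlier results of these data known. No p-value was computed. Overlap and interval steps were tested on simulated data, in which every gap between genes was under the 200 kb limit. The merging step was run there only on peaks with none to join. Python 3.11.15, numpy 2.4.6, pandas 2.3.3, scipy 1.17.1 and matplotlib 3.10.9 were used.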

Additional observations from a re-analysis of the deposited data

How the results depend on the processing

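Over 30 alternatives to 6 summary values, 26 left the value within 1.5 times its size or, for the median width, within its interval. The 26 include every alternative to the counts that were 0. None of those settings could move them, as the nearest chondroprogenitor peak to any member was 423 kb away. A distance limit of 500 kb could not move the count of unassigned peaks either, as all neighbouring members of a chromosome already lay under 200 kb apart. With only peaks at least as wide as the list median, which stands in for a stricter threshold, members with an assigned chondrocyte peak numbered 4 in place of 8, against 28.1% in place of 43.8% of protein-coding genes, and assigned peaks 6 in place of 16. Counting every peak within 20 kb of a gene body gave 26 peaks and 9 members, and added Aspn. The peaks near Aspn were those assigned to Omd and a peak assigned to Cenpp. The share of all protein-coding genes at 20 kb was not computed. A distance limit of 100 kb dropped the Prelp-Fmod interval and left 3 unassigned peaks in place of 9. By overlap with the gene body, 7 members had a peak, since the peak of Lum lies outside it, against 40.5% of protein-coding genes. Epyc had 0 peaks and the chondroprogenitor list 0 peaks for every member under each way of assigning peaks. No paired analysis was possible because each list merged the libraries of its stage, which also kept single libraries from being left out. Peak height and read depth were unknown, so peak number and width cannot be read as amounts of 5hmC.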

Other observations

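Unassigned chondrocyte peaks also lay beside the clusters, outside the intervals between members. The 200 kb below the lower-coordinate end of Dcn held 12, all unassigned, between 97290012 and 97457055 on chromosome 10, with a median width of 516 bp. On chromosome 1, the 96.1 kb between Atp2b4, which encodes a plasma membrane calcium pump, and Optc held 8, all unassigned, with a median width of 673.5 bp. Whether these counts are high for stretches of such length was not tested. The chondroprogenitor list, with only 1050 peaks in all, had 0 in both of these flanking stretches, which shows no stage difference. Dcn thus had peaks on its lower side and between it and Lum, whereas Epyc at the other end of the cluster had 0 within 100 kb on its higher side and 3 within 100 kb on its lower side.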
